A study of Ovis aries with 9 samples.

Results

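The genes followed here are 10 of the 28837 named genes in the count table, found by symbol: GK and GPD1, which supply glycerol 3-phosphate, GPAM, AGPAT2, LPIN1, LPIN2, DGAT1 and DGAT2, which build triglyceride on it, and MTTP and TM6SF2, which load lipid onto lipoprotein particles. All 10 were found, all are protein-coding genes in RefSeq, and all passed the filter on low counts in every comparison. They were read in hepatocytes of female sheep (Ovis aries), profiled cell by cell with Smart-seq3xpress, a plate method that makes a separate library from each picked cell. The 9 samples were 1 of virgin sheep, 6 of gestation (days 40 to 50, 50 to 70, 70 to 80, 90 to 100, 100 to 120 and 140 to 150) and 2 of lactation (days 7 and 15 after birth). The labels name no breed, age, treatment or number of animals. Each stage is 1 sample, so the stages of a phase served as its replicates. Nothing in the labels ties a stage to separate animals, and a p-value therefore reflects how far these samples scatter, part of which may be technical. The comparisons of phases hold no term for gestational day, so change within gestation also adds to that scatter.

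Hepatocytes esterify fatty acids onto glycerol 3-phosphate. This comes from glycerol, phosphorylated by glycerol kinase (GK), or from a glycolytic intermediate reduced by glycerol 3-phosphate dehydrogenase (GPD1). A first acyl chain can be added by GPAM at the outer mitochondrial membrane and the next by AGPAT2 in the endoplasmic reticulum. Lipins remove the phosphate, and DGAT1 or DGAT2 adds the final chain. The triglyceride is kept in droplets or passed by MTTP, with TM6SF2, into particles built on APOB. The ruminant liver is known for exporting little triglyceride, and for storing it when fatty acids arrive from adipose tissue around birth.

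The table held 3404 cells, with 246 to 553 per sample and 114865665 to 272944124 reads on named genes per sample. Reads per cell ran from 36518 to 3842012. The hepatocyte label held: ALB had reads in 100% of cells at 32004 to 113351 CPM (counts scaled to a common library total). Of 13 hepatocyte markers 12 were in the table, and 1 of these stayed under 1 CPM in every sample. Their summed level was 158792 to 214041 CPM in gestation, 178187 CPM in the virgin sample and 80499 to 109659 CPM in lactation. Summed markers of bile duct, endothelium, stellate cells, macrophages, lymphocytes and neutrophils stayed at or below 42.6 CPM in each sample, and those of red cells reached 223.7 CPM at lactation day 7. No cells had identical counts. Because highly expressed hepatocyte transcripts took a smaller share in lactation, levels are given as CPM of reads summed over cells after TMM scaling, and scaling by library size alone moved the median log2 fold change of all genes by -0.19 between gestation and lactation and by -0.14 between gestation and virgin.

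Compared per kilobase of the authors' gene length, as means over the 9 samples, GPD1 had the highest level at 138.5 CPM per kb, followed by AGPAT2 at 45.9 and MTTP at 25.7. GPAM (14.7), GK (13.1), DGAT2 (12.5) and TM6SF2 (11.8) lay close together, with differences in mean smaller than the spread of GK over the samples, whose coefficient of variation was 66.6%. LPIN1 (5.78), DGAT1 (3.32) and LPIN2 (2.89) had the lowest levels per kb. The length given for LPIN2 is 14432 bases, the longest of the set, which lowers its level on this scale. The levels rested on 1158 reads (LPIN1) to 102433 reads (GPD1) per sample, and the exact 95% Poisson intervals, which cover counting error only, were at most 5.80% of the level to either side.

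**Figure D1:**
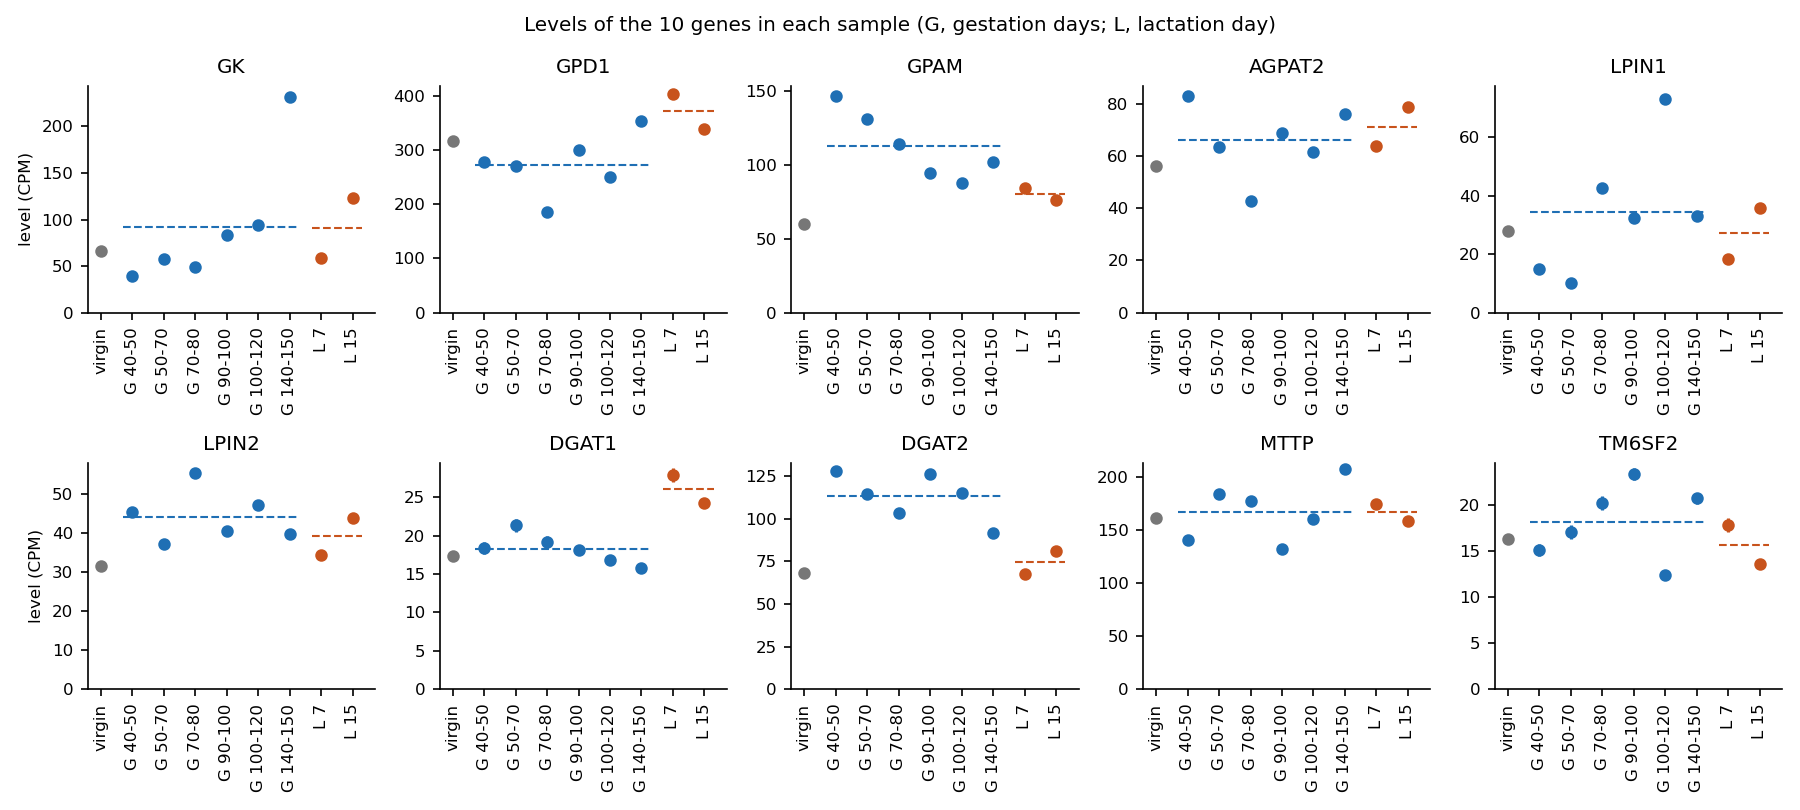
Level of each gene (CPM after TMM scaling, y axis from 0) in the 9 samples (x axis: virgin, grey; gestation by days, blue; lactation by day, orange), with dashed lines at the mean of the gestation and of the lactation samples; bars, mostly hidden by the points, are exact 95% Poisson intervals. GK stands at 231.5 CPM at days 140 to 150 against at most 123.3 CPM elsewhere, and the gestation and lactation points of GPAM, DGAT1 and DGAT2 do not overlap.

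GK, which admits free glycerol into the pathway, had its lowest level early in gestation and its highest at term. It was 66.1 CPM in the virgin sample. Over gestation it was 39.4, 57.2, 48.5, 83.2, 94.3 and 231.5 CPM in order of days, and in lactation 58.4 CPM at day 7 and 123.3 CPM at day 15. The sample of days 140 to 150 was above all others and 5.88-fold above that of days 40 to 50, while the lactation values lay inside the gestation range. The slope over the 6 gestation samples was 2.43 on the log2 scale per 100 days (SE 0.29), and it missed the threshold in edgeR (unadjusted p = 2.87e-05, adjusted p = 0.0640). DESeq2 called it (slope 2.41, adjusted p = 1.31e-08). Without the sample of days 140 to 150 the slope was 1.86, with an adjusted p of 0.484 in edgeR.

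Much of the term level of GK came from 1 run of cells. Cells are numbered in the column names, and the labels do not say whether a run of numbers is an animal, a plate or a day. At days 140 to 150 the 99 cells numbered 394 to 492 had GK at 565.6 CPM and the other 393 cells had it at 129.4 CPM. These 99 cells gave 57.2% of the GK reads of the sample. In the 10 equal runs of that sample GK was 75.4 to 183.2 CPM in the first 8 and 592.7 and 543.0 CPM in the last 2, so the step came between neighbouring runs. GK reads were present in 100% of the 99 cells and in 98.0% of the rest, so the runs differed in level per cell rather than in whether the gene was read. Without these 99 cells the level at days 140 to 150 was 129.4 CPM, scaled with the factor of the whole sample. This was above the 94.3 CPM of days 100 to 120 but near the 123.3 CPM of lactation day 15. By the median over cells the level was 104.5 CPM, against 100.8 CPM at lactation day 15. The slope over gestation without these cells was 1.68, with an adjusted p of 0.109 in edgeR.

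Other genes differed in the same 99 cells. AQP9, the main glycerol channel of the hepatocyte, was 137.7 CPM there against 459.2 CPM in the other cells, and AQP7, a glycerol channel best known from adipose tissue, was 57.2 against 277.3 CPM. LPIN1 was 74.4 against 20.6 CPM, MTTP 288.7 against 183.5 CPM, and TM6SF2 25.5 against 19.2 CPM. DGAT2 was lower, at 62.2 against 100.4 CPM, as was GPD1 at 261.8 against 382.3 CPM, whereas GPAM (113.4 against 98.5 CPM) was closer. ALB was 38806 against 108033 CPM, summed pericentral markers 3526 against 6471 CPM and summed periportal markers 7416 against 6749 CPM. Summed macrophage markers were 29.1 against 5.56 CPM and endothelial markers 20.6 against 6.19 CPM, both small beside the hepatocyte markers at 133899 against 185539 CPM. Median reads per cell (449417 against 375571) and genes detected (6140 against 6283) were near each other. The part of any of these in the GK level was not tested.

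**Figure D2:**
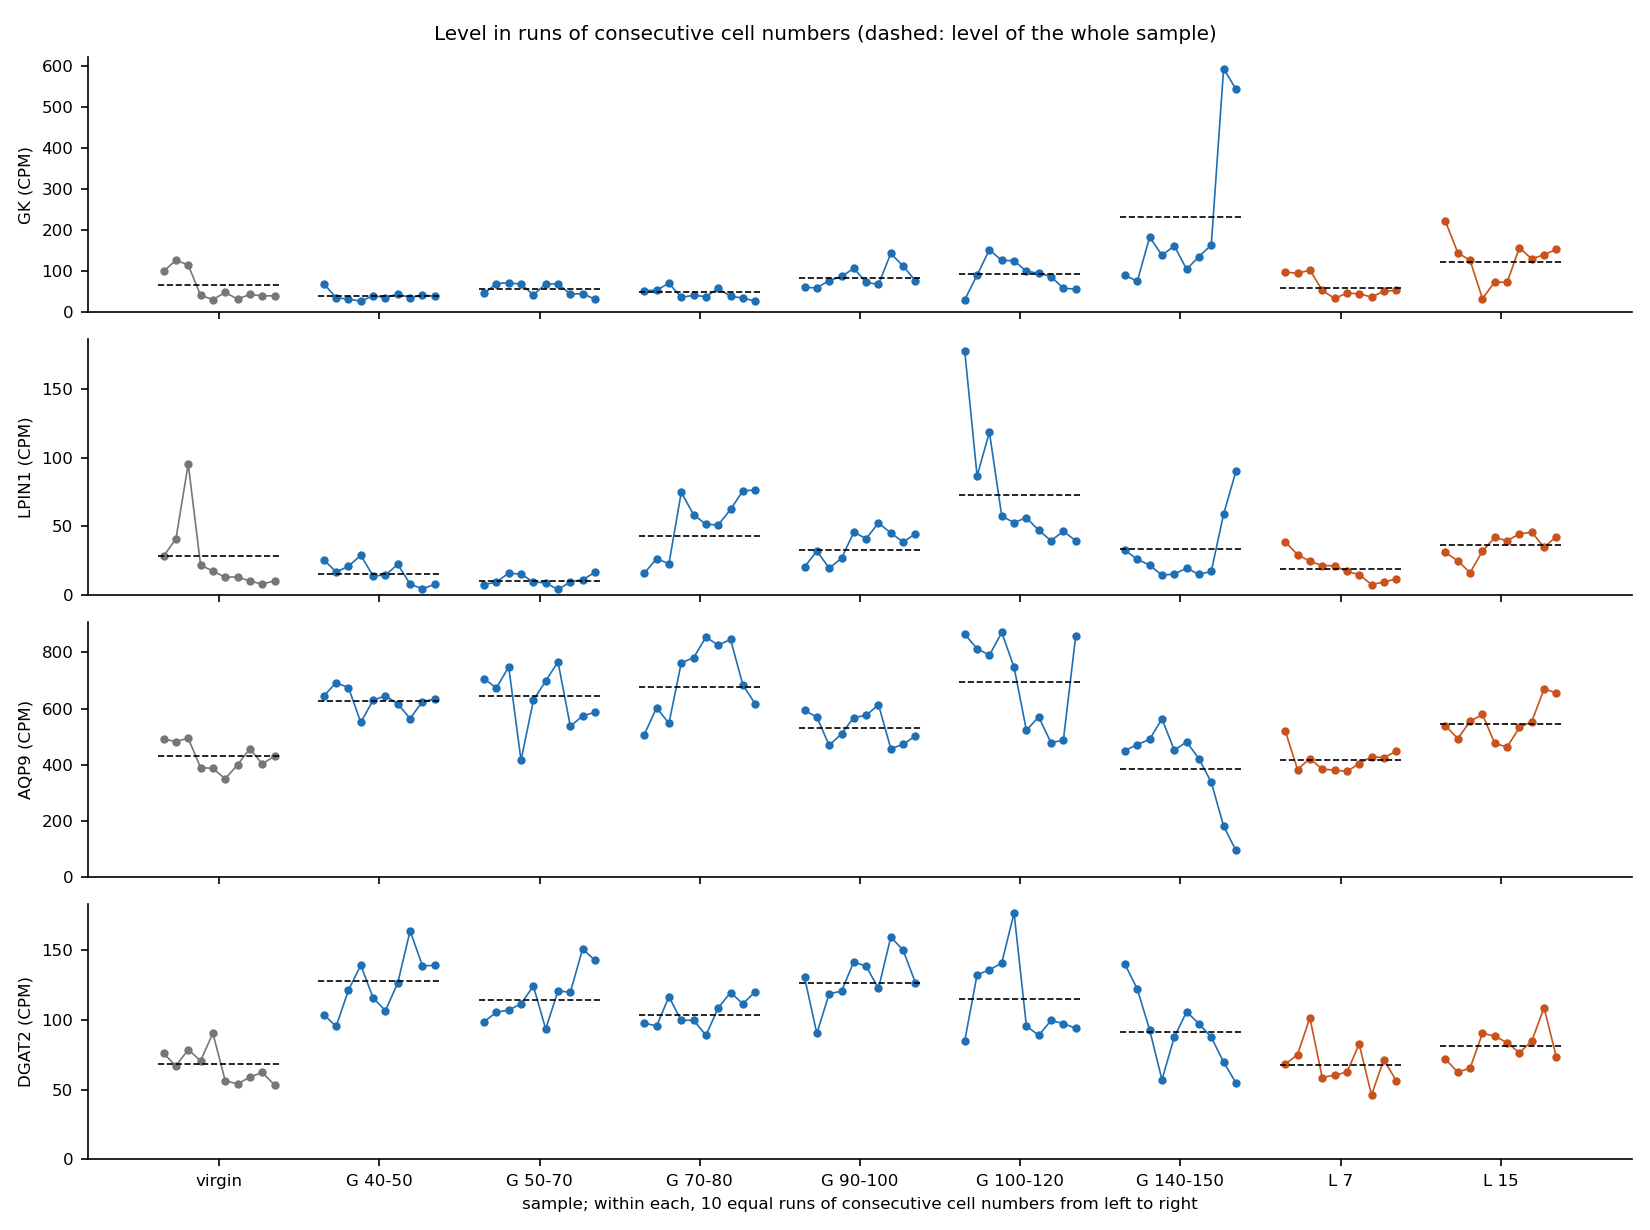
Levels (CPM, y axes from 0) of GK, LPIN1, AQP9 and DGAT2 in 10 runs of consecutive cell numbers within each sample (x axis: samples; points from left to right are runs; dashed lines, the level of the whole sample). At days 140 to 150 GK steps from 163.6 to 592.7 CPM between the eighth and ninth runs while AQP9 goes from 337.0 to 181.0 CPM, and at days 100 to 120 LPIN1 starts at 177.8 CPM and ends at 39.4 CPM.

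GPD1, the other source of glycerol 3-phosphate, had the highest level per length in the set, with a coefficient of variation of 21.2% over the samples. It was 316.3 CPM in the virgin sample. Over gestation it was 277.4, 270.0, 186.4, 301.2, 250.7 and 354.1 CPM in order of days, and in lactation 404.0 and 339.4 CPM at days 7 and 15. Lactation day 7 was highest and days 70 to 80 lowest, 2.17-fold apart, and only the term sample of gestation reached into the lactation range. With scaling by library size alone the gestation samples (195.3 to 344.5 CPM) lay below both lactation samples (375.3 and 439.1 CPM), at an unadjusted p of 0.0114 and an adjusted p of 0.232 in edgeR. Per kilobase, the ratio of GK to GPD1 was 0.0664 in the virgin sample. In gestation the ratio was 0.0451, 0.0673, 0.0827, 0.0878, 0.119 and 0.208 in order of days, and in lactation 0.0460 and 0.115 at days 7 and 15, so GPD1 was above GK in every sample. Without the 99 cells the ratio at days 140 to 150 was 0.108, below those of days 100 to 120 and lactation day 15.

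Of the list for glycerol entry and glycerol 3-phosphate, 10 of 10 genes were in the table, 9 were tested between phases, and 0 passed in edgeR in any comparison. At an unadjusted p under 0.05 in edgeR these were 1 between gestation and lactation (GPD2, lower in gestation) and 0 for gestation against the virgin sample. For lactation against the virgin sample they were 2 (GK5 higher, AQP10 lower), and in the trend 1 (AQP3, positive). AQP10 was near 0 throughout, at 0.0793 CPM in the virgin sample, its highest level, and 0 CPM in both lactation samples. DESeq2 called AQP3 in the trend and 0 genes between phases. AQP9 and TPI1, a glycolytic enzyme that feeds the intermediate GPD1 uses, had the highest levels. AQP9 was 431.7 CPM in the virgin sample, 383.9 to 694.0 CPM in gestation and 414.7 to 544.3 CPM in lactation, with its lowest level at days 140 to 150. Without the 99 cells it was 459.2 CPM there, above the virgin sample and lactation day 7. TPI1 was 186.6 to 294.3 CPM. AQP7, named here after its values were seen, was 225.8 CPM at term and 20.2 CPM at days 100 to 120, and GK2 had 0 reads.

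GPAM, the mitochondrial acyltransferase at the start of esterification, was highest early in gestation. Its level was 59.9 CPM in the virgin sample. Over gestation it was 146.5, 130.5, 113.8, 94.5, 87.7 and 102.0 CPM in order of days, and in lactation 84.4 and 76.2 CPM at days 7 and 15. The virgin sample was the lowest of the 9, the 6 gestation samples (112.5 ± 22.5 CPM, SD, n = 6) were all above the 2 lactation samples (80.3 ± 5.79 CPM, SD, n = 2), and the gap between the phases was narrow, from 84.4 to 87.7 CPM. The log2 fold change in edgeR was 0.49 (SE 0.22) against lactation (unadjusted p = 0.0493, adjusted p = 0.530) and 0.91 (SE 0.30) against virgin (unadjusted p = 0.0128, adjusted p = 1). The slope over gestation was -0.60 per 100 days (SE 0.26, unadjusted p = 0.0470, adjusted p = 0.748). With scaling by library size alone the phases overlapped (80.7 to 136.5 CPM in gestation, 84.3 and 91.7 CPM in lactation).

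AGPAT2, which makes phosphatidate, showed no separation of the phases. It was 56.0 CPM in the virgin sample, 42.8 to 83.1 CPM in gestation with a median of 66.2 CPM, and 63.7 and 78.6 CPM in lactation. Its highest gestation level came at days 40 to 50 and its lowest at days 70 to 80. In the sample of days 100 to 120 the first run of 36 cells had AGPAT2 at 12.04 CPM and the other 9 runs had it at 53.0 to 81.0 CPM.

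Lipins turn phosphatidate into diacylglycerol, and LPIN1 is also known as a coactivator of genes for fatty acid oxidation. LPIN1 had the widest range of the 10 genes, 7.31-fold from its lowest to its highest sample, while GK had the larger coefficient of variation (66.6%). It was 27.9 CPM in the virgin sample. Over gestation it was 14.8, 9.98, 42.8, 32.4, 73.0 and 33.2 CPM in order of days, and in lactation 18.4 and 36.0 CPM at days 7 and 15. The 4 samples from days 70 to 80 onward were all above the 2 earlier ones. Its slope over gestation did not reach an unadjusted p of 0.05 in edgeR. The level at days 100 to 120 came from 177.8, 86.6 and 118.6 CPM in the first 3 of its 10 runs of cells against 39.3 to 57.3 CPM in the other 7. By the median over cells, days 70 to 80 were highest (37.4 CPM) and days 100 to 120 were at 17.1 CPM.

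LPIN2 had a smaller range. It was 31.5 CPM in the virgin sample, 37.1 to 55.5 CPM in gestation with a median of 43.0 CPM, and 34.3 and 44.0 CPM in lactation, so the virgin sample was lowest and days 70 to 80 highest. Per kilobase, LPIN1 was below LPIN2 at days 40 to 50 and 50 to 70, at ratios of 0.846 and 0.700, and above it in the other 7 samples, at ratios up to 4.03 at days 100 to 120. This order rests on the length given for LPIN2: in reads, without regard to length, LPIN1 was below LPIN2 in 8 samples, at ratios of 0.269 to 0.886, and above it only at days 100 to 120, at 1.55. LPIN3, the third lipin, stayed at or below 0.828 CPM.

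DGAT1 and DGAT2 catalyse the same final acylation but are unrelated in sequence, and they differed in opposite directions between gestation and lactation. DGAT2 was 68.5 CPM in the virgin sample. Over gestation it was 128.0, 114.7, 103.4, 126.6, 115.4 and 91.5 CPM in order of days, and in lactation 67.6 and 81.2 CPM at days 7 and 15. All 6 gestation samples (113.3 ± 13.9 CPM, SD, n = 6) were above the virgin sample and both lactation samples (74.4 ± 9.66 CPM, SD, n = 2). DGAT1 was 17.3 CPM in the virgin sample. Over gestation it was 18.4, 21.3, 19.2, 18.1, 16.8 and 15.8 CPM in order of days, and in lactation 27.9 and 24.2 CPM at days 7 and 15. Both lactation samples (26.1 ± 2.61 CPM, SD, n = 2) were above the virgin sample and all 6 gestation samples (18.3 ± 1.93 CPM, SD, n = 6).

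Neither difference passed the adjusted threshold in edgeR. For DGAT2 the log2 fold change was 0.61 (SE 0.18) for gestation against lactation (unadjusted p = 0.00736, adjusted p = 0.312) and 0.73 (SE 0.25) for gestation against virgin (unadjusted p = 0.0143, adjusted p = 1). DESeq2 called the former, at a log2 fold change of 0.63 and an adjusted p of 0.0492. For DGAT1 it was -0.51 (SE 0.16) for gestation against lactation (unadjusted p = 0.00942, adjusted p = 0.332) and 0.59 (SE 0.25) for lactation against virgin (unadjusted p = 0.0422, adjusted p = 0.965). With scaling by library size alone DGAT1 still did not overlap (15.4 to 20.3 against 26.8 and 30.3 CPM), and DGAT2 did (89.0 to 120.0 against 73.4 and 89.8 CPM).

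The ratio of the pair within a sample does not depend on scaling between samples. Per kilobase, DGAT2 over DGAT1 was 2.98 in the virgin sample. In gestation it was 5.23, 4.04, 4.06, 5.27, 5.17 and 4.36 in order of days, and in lactation 1.82 and 2.52 at days 7 and 15. DGAT2 was thus above DGAT1 in every sample, and the gestation ratios lay above the virgin and both lactation ratios. The separation from lactation follows from the levels above, where DGAT2 was higher and DGAT1 lower in every gestation sample. It is therefore no separate support, and no share over other pairs of genes is given. Across single cells the genes showed little shared variation: Spearman's rho ran from -0.0989 to 0.0745 over the 9 samples and was above 0 in 4. The cells of a sample are not replicates, and these values are a description.

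**Figure D3:**
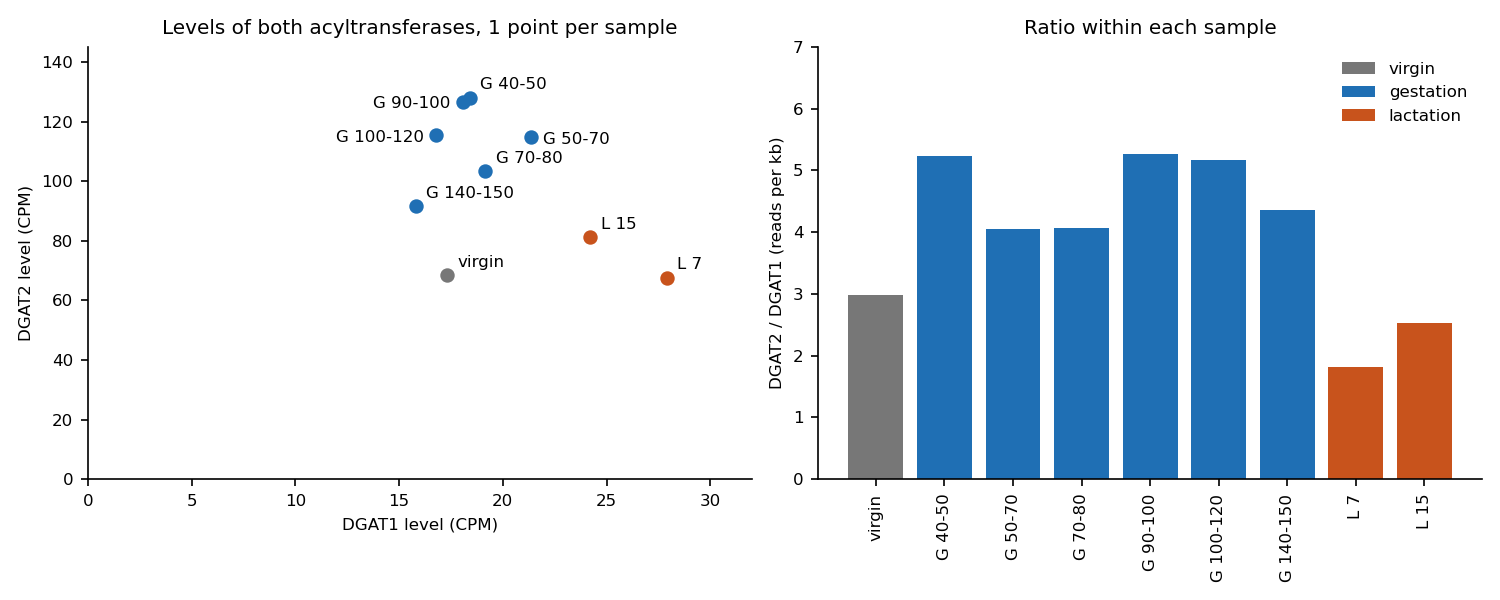
Left, DGAT2 level against DGAT1 level (CPM, both axes from 0), 1 point per sample, coloured by phase; right, the ratio of DGAT2 to DGAT1 in reads per kb within each sample. The 6 gestation samples lie at the upper left with ratios of 4.04 to 5.27, and the lactation samples lie lower and to the right with ratios of 1.82 and 2.52.

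MTTP, the transfer protein that lipidates APOB, had the smallest variation of the set, with a coefficient of variation of 13.7%. It was 162.1 CPM in the virgin sample, 132.1 to 208.1 CPM in gestation with a median of 169.0 CPM, and 175.1 and 158.9 CPM in lactation. Both lactation samples and the virgin sample lay within the gestation range. TM6SF2, a membrane protein that helps enlarge the particles, was 16.3 CPM in the virgin sample, 12.4 to 23.3 CPM in gestation with a median of 18.6 CPM, and 17.8 and 13.5 CPM in lactation, again with overlap of all phases. APOB and P4HB, the protein-folding subunit of the MTTP complex, had the highest levels of the list for the lipoprotein particle and its exit. APOB was 1468 CPM in the virgin sample, 1406 to 1688 CPM in gestation, and 1238 and 1273 CPM in lactation, where both samples were below all gestation samples. P4HB was 457.9 to 923.6 CPM. Of the 13 genes of that list, 0 passed in edgeR or DESeq2 in any comparison, and MIA3 and SORT1, both in cargo transport, were those with an unadjusted p under 0.05 in edgeR, MIA3 between lactation and virgin (higher) and in the trend (negative), SORT1 in the trend (negative).

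The counts of calls among the 10 genes can be set beside those among all genes. Between gestation and lactation 0 of 10 had an adjusted p under 0.05, where 0.0592% of the 20263 genes tested had one. DESeq2 called 1 of 10, DGAT2, where it called 2.95% of the 17745 genes with an adjusted p. Unadjusted, 3 of 10 had a p under 0.05 (GPAM and DGAT2 higher in gestation, DGAT1 lower), against a background of 9.4%. The same 3 of 10 had phases that did not overlap, against 11% of all genes. Which genes these were depended on the measure. They were GPD1 and DGAT1 with scaling by library size alone, and GPD1, DGAT1 and DGAT2 by the mean or the median over cells. No share over all genes is given for these measures. Of the 10, 7 were higher in gestation and 3 lower, with a median log2 fold change of 0.10 against 0.01 for all genes. With scaling by library size alone GK, LPIN2 and MTTP changed sign, and 4 of 10 were higher in gestation.

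Against the virgin sample, which is a single sample assumed to vary like the others, 0 of 10 genes passed in gestation in edgeR (background 0.00494%) or in DESeq2 (background 0.671%), and 2 of 10 had an unadjusted p under 0.05, GPAM and DGAT2, both higher in gestation (background 4.45%). Of the 10, 9 were higher in gestation, with a median log2 fold change of 0.27 against 0.06 for all genes, and 7 were higher with scaling by library size alone. For lactation against virgin 0 of 10 passed in edgeR (background 0%) or in DESeq2 (background 0.565%), and DGAT1 was the 1 of 10 with an unadjusted p under 0.05 (background 4.94%). Here 8 were higher in lactation, with a median of 0.27 against 0.05 for all genes. These comparisons share the virgin sample, and each shares samples with the contrast of gestation and lactation. For the trend over gestation 0 of 10 passed in edgeR (background 0.0336% of 17848 genes tested) and 1, GK, in DESeq2 (background 1.77% of 17155 genes), and 2 of 10 had an unadjusted p under 0.05, GK with a positive and GPAM with a negative slope (background 6.62%). The median slope was 0.14 per 100 days against 0.01 for all genes. The median coefficient of variation over the 9 samples was 20.8% for the 10 genes and 19.9% for the 8282 genes of at least 5 CPM.

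**Figure D4:**
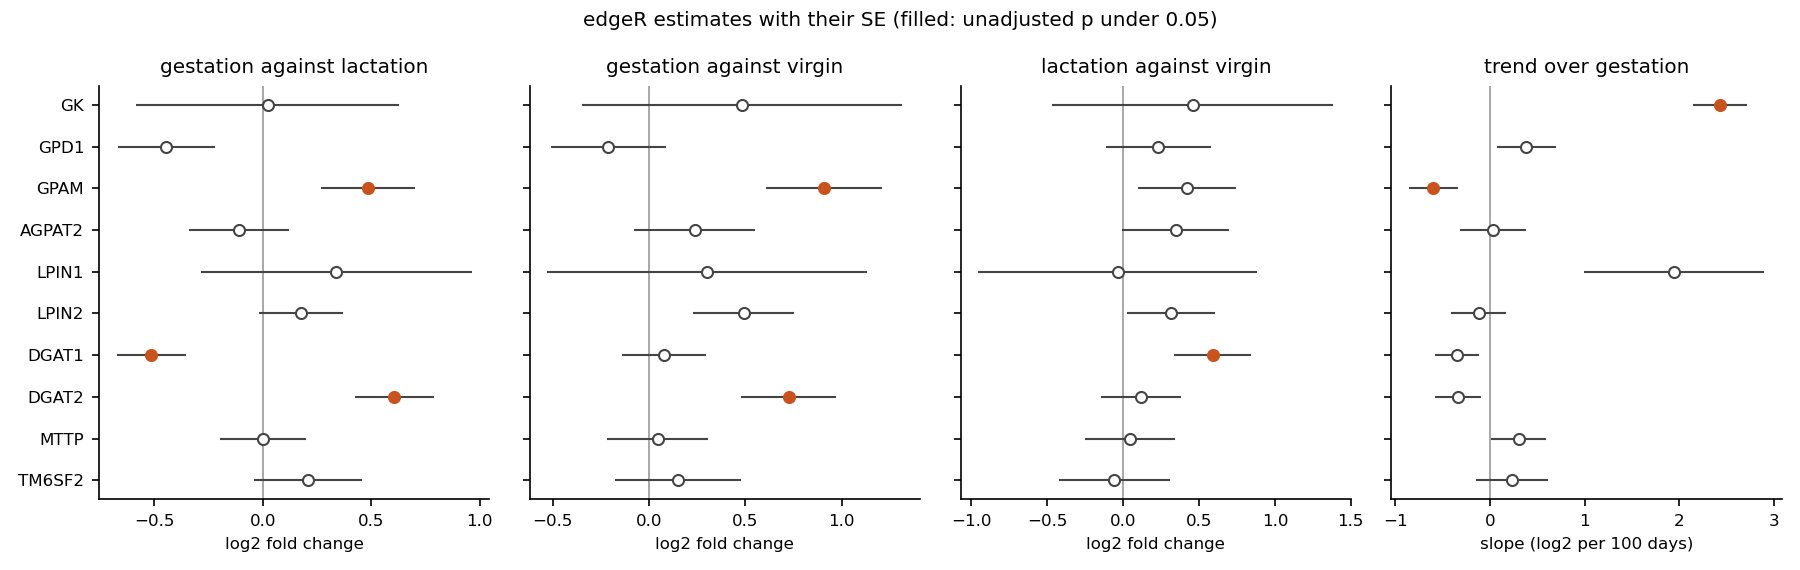
edgeR estimates for the 10 genes (points) with their SE (bars) in 3 comparisons of phases (x axis: log2 fold change) and for the trend over gestation (x axis: log2 slope per 100 days); filled points have an unadjusted p under 0.05 and none has an adjusted p under 0.05. DGAT1 and DGAT2 lie on opposite sides of 0 between gestation and lactation (-0.51 and 0.61), and GK has the largest slope (2.43).

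How widely a gene was read across cells was measured after thinning each cell to 155164 reads, which kept 3063 cells and left out 341. GPD1 and MTTP had reads in at least 98.0% of cells of every sample, and DGAT2 in at least 92.0%. GPAM ran from 87.4% to 99.5%, AGPAT2 from 85.6% to 98.5% and LPIN2 from 79.1% to 97.7%. GK was read in 81.9% of cells at days 40 to 50 (exact 95% interval 76.7 to 86.3%) and in 98.2% at days 140 to 150 (96.4 to 99.2%). Without thinning the GK shares were 85.2% and 98.4%.

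The 3 genes with the lowest share at some stage were LPIN1, DGAT1 and TM6SF2. LPIN1 had reads in 41.7% of cells at days 50 to 70 (35.5 to 48.0%) and in 82.6% at days 70 to 80 (76.9 to 87.5%), a step between neighbouring stages. DGAT1 was read in 81.8% of cells at lactation day 7 and 78.0% at day 15, and in 52.1 to 77.5% of cells in gestation. TM6SF2 was lowest at days 100 to 120, at 35.9% (30.8 to 41.2%), and highest at days 70 to 80, at 75.6% (69.2 to 81.2%). The median number of genes detected per cell, over all genes and without thinning, was 5171 at days 100 to 120 and 6748 at days 70 to 80, the lowest and the highest of the 9 samples. These are the stages where 6 of the 10 genes had their lowest share and 5 their highest, respectively, and the part of gene detection in these shares was not tested. The median cell had reads of 8 or 9 of the 10 genes in each sample, and the share of cells with all 10 ran from 5.59% at days 100 to 120 to 43.7% at days 70 to 80.

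**Figure D5:**
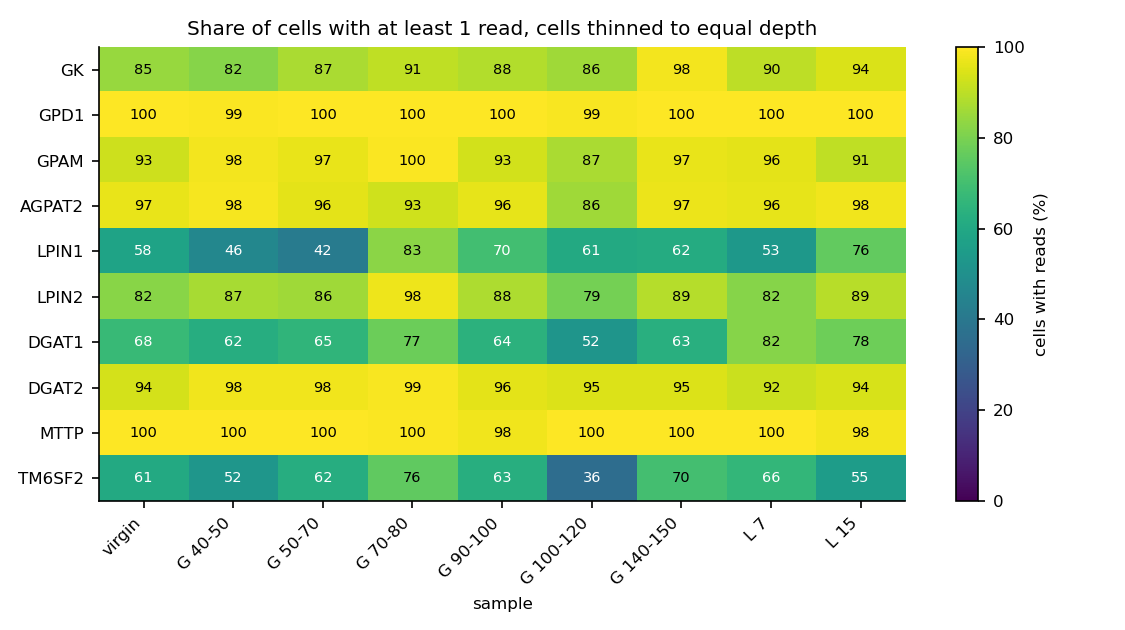
Share of cells with at least 1 read (percent, colour and number) for each gene (rows) in each sample (columns), after thinning each cell to 155164 reads. GPD1 and MTTP are near 100% throughout, while LPIN1, DGAT1 and TM6SF2 vary most, TM6SF2 from 35.9% at days 100 to 120 to 75.6% at days 70 to 80.

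Levels differed among the cells of a sample as well as between samples. The SD of log2 level between the 10 runs of cell numbers within a sample was 0.63 for GK and 0.74 for LPIN1, beside SDs between samples of 0.77 and 0.83. For MTTP (0.26 within, 0.20 between), TM6SF2 (0.43 and 0.28), AGPAT2 (0.36 and 0.29), LPIN2 (0.31 and 0.24) and DGAT1 (0.33 and 0.25) the SD between runs was the larger. For DGAT2 (0.28 and 0.36), GPAM (0.32 and 0.39) and GPD1 (0.29 and 0.32) the SD between samples was the larger. A run holds fewer cells than a sample, so scatter among single cells widens the SD between runs. The part of this scatter was not tested, and the SDs do not show whether runs differ more than samples. Reads were also unevenly spread over cells: the 10% of cells with the most reads of a gene held 33.0 to 53.3% of GK reads and 34.8 to 56.4% of LPIN1 reads, against 23.2 to 31.8% of GPD1 reads. For LPIN1 the median cell at days 40 to 50 had a level of 0.

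Across cells, the thinned reads of the genes were set beside a position score. It was the mean log2(thinned reads + 1) of 8 pericentral genes minus that of 10 periportal genes. Spearman's rho of GPD1 with the score was negative in 8 of 9 samples, from -0.545 at days 40 to 50 (265 cells) to 0.0480 at days 140 to 150 (437 cells), and without the cells numbered from 394 at days 140 to 150 it was -0.116 there (346 cells). For LPIN1 it was negative in 9 of 9 samples, from -0.322 at days 140 to 150 to -0.0240 at lactation day 7, and it was -0.261 at days 140 to 150 without those cells. For GK it was negative in 7 of 9 samples, from -0.324 at days 140 to 150, where it was -0.218 without those cells, to 0.0635 at days 40 to 50. AGPAT2 went the other way in 7 samples, with values from -0.0404 to 0.160. Among the 45 pairs of the 10 genes, GPD1 and AGPAT2 were the pair with a positive rho in all 9 samples (0.0277 to 0.319), and most rho values were weak. GK and AQP9 had a rho of -0.489 at days 140 to 150, which was -0.246 without the cells numbered from 394. GK and PLIN2 had 0.136 there, 0.382 without those cells and -0.216 within the 91 of them deep enough to be thinned, and over the 9 samples their rho was positive in 7, from -0.172 at days 40 to 50 to 0.330 at lactation day 15. Cells of a sample are not independent samples, and the labels do not say which of them share an animal or a plate, so these values describe each sample.

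In the other 5 related lists 0 genes passed in edgeR in the 3 comparisons of phases and 1 gene, PLIN2, in the trend. DESeq2 called MOGAT1 between gestation and lactation, PNPLA3 and FOXO1 in gestation against the virgin sample, PNPLA3 in lactation against it, and GPAT3, ACSL3, FABP1, PNPLA3, PLIN2 and SREBF1 in the trend. Over all genes DESeq2 called 2.95%, 0.671%, 0.565% and 1.77% in these comparisons, in the same order. PNPLA3 was only 0.141 to 1.72 CPM in gestation. Of the other acyltransferases and phosphatidate phosphatases, 15 of 17 were in the table and 14 tested. PLPP3, a lipid phosphatase, was 71.1 to 252.6 CPM. MOGAT1, which makes diacylglycerol from monoacylglycerol, was 124.7 to 183.5 CPM in gestation, 106.1 CPM in the virgin sample and 73.3 and 88.7 CPM in lactation, so its phases did not overlap either (log2 fold change 0.96, SE 0.20, unadjusted p = 0.000689, adjusted p = 0.143 in edgeR). Of the acyl-CoA supply list 9 of 10 were in the table. FABP1, a fatty acid carrier, was 8562 CPM in the virgin sample and 2292 CPM at days 140 to 150, and ACSL1, which activates fatty acids, was 427.3 to 723.9 CPM.

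Of the 8 genes for other uses of phosphatidate and diacylglycerol, CHPT1 (257.6 to 390.2 CPM) and CEPT1 (66.8 to 135.4 CPM), which make phospholipids, had the highest levels. PNPLA3, a lipid droplet protein named here after its values were seen, was 24.0 CPM in the virgin sample and at most 1.72 CPM in the other 8, at an adjusted p of 0.449 in edgeR for gestation against virgin. Of the 6 genes for droplet formation, PLIN3 was 24.5 to 42.2 CPM. PLIN2, the droplet coat protein, was 3.77 CPM at days 40 to 50 and 103.3 CPM at days 140 to 150 (slope 5.41 per 100 days, SE 0.52, adjusted p = 0.0269 in edgeR), and leaving out days 40 to 50, 50 to 70, 90 to 100 or 140 to 150 gave adjusted p-values of 0.229, 0.155, 0.0559 and 0.0639. In the 99 cells with high GK at days 140 to 150 PLIN2 was 72.5 CPM, against 112.8 CPM in the others. Of the 9 transcriptional regulators, PPARA (77.6 to 131.7 CPM) and HNF4A (84.2 to 130.7 CPM) had the highest levels.

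The genes most like each of the 10 in pattern were sought by Pearson's r of log2(CPM + 1) over the 9 samples, among 3718 genes of at least 20 CPM with a symbol other than LOC. With 3718 candidates and 9 samples these values are given only as a description. GK was most like EVA1A (r = 0.98), VPS13D (0.94) and P2RX4 (0.92), and the genes most like LPIN1 included TXNIP (0.97) and KLF9 (0.95). Those most like GPAM included PIPOX (0.95), a peroxisomal enzyme, and AHNAK (0.93). DGAT2 was most like CTXND1 (0.93), ATXN10 (0.93) and CAT (0.93), the peroxisomal catalase. DGAT1 was most like UBE2D2 (0.92), GCLM (0.91) and MYH9 (0.90). GPD1 was most like PLOD3 (0.92), AP3D1 (0.91) and INHBE (0.90), and AGPAT2 most like MRPS34 (0.93), EPN1 (0.92) and QPRT (0.88). LPIN2 was most like NFS1 (0.90), TMT1B (0.90) and AGGF1 (0.89), MTTP most like ATF7IP (0.92), DDX46 (0.81) and ZNF148 (0.80), and TM6SF2 most like C8A (0.88), CPSF6 (0.85) and SUGCT (0.85). Within the set, the pairs with the largest r in size were GPAM and DGAT2 (0.74) and GPD1 and LPIN2 (-0.74).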

How the data were processed

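Per the submitters' processing notes, reads were handled with Trimmomatic 0.39, HISAT2 2.1.0 and featureCounts 2.0.1; the genome build, strand setting and treatment of molecular identifiers are not given in the sources used here. The authors deposited whole-number counts per gene and cell, with no normalization, and a gene length in bases. Of 28861 rows, 24 named no gene, held 0.474% of reads and were left out. All 28837 symbols matched RefSeq (ARS-UI_Ramb_v3.0), used for names and neighbours only. LPIN2 and DGAT1 each overlap 1 annotated gene, LOC132658470 at 0 CPM and SCRT1 at 0.000801 CPM.

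For each sample the counts of all its cells were added up, and the sums were fitted with edgeR 4.0.16 (filterByExpr, TMM, quasi-likelihood test, Benjamini-Hochberg over all genes, threshold 0.05) with a phase term over 9 samples, and on the midpoint of the range of days over the 6 gestation samples. The genes and lists were chosen with earlier results of these data known. All 10 genes are named. A fold change with its SE is given where a gene's unadjusted p was under 0.05. From each related list the 2 genes of highest mean level and any gene passing the test are named, and for each of the 10 genes the 3 genes most alike, some of which are not reported here. Shares have exact Clopper-Pearson 95% intervals. No doublets were called, since cells were picked singly per the labels' protocols, and no cells were typed. Alternatives were DESeq2 1.42.0, library size scaling, no filter, limma 3.58.1 on means over cells, and leaving out each sample. On simulated counts, 4.48%, 71.6% and 100% of genes changed by a log2 of 1, 2 and 3 were called between gestation and lactation, and 0%, 19.4% and 66.7% with such slopes over gestation. False calls numbered 10 between the phases and 1 in the trend. The simulation gave all genes the same dispersion and changed only genes of higher counts, so these shares need not hold for the 10 genes. Python 3.11.15 was used for the rest.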

Additional observations from a re-analysis of the deposited data

Results flagged for a closer look

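In each phase of 4 or more samples, the gap between an extreme sample and its nearest neighbour was compared with the range of the phase, for the level and the share of cells of each of the 10 genes. Of the 20 sets of gestation samples checked, 2 stood out, and chance alone marks about 1 in 20 such sets. The level of GK at days 140 to 150, 231.5 CPM, was set apart from the other 5 gestation samples by 0.714 of the range, above the limit of 0.625. Without the 99 cells numbered 394 to 492 it was 129.4 CPM and the gap was 0.39 of the range. The share of cells with MTTP reads at days 90 to 100, 98.0%, was the lowest of the gestation samples, by 0.762 of a range that spans less than 2 percentage points.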

How the results depend on the processing

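The number of the 10 genes passing in edgeR was 0 in each comparison, and it remained 0 in every leave-one-out fit (lowest 0, highest 0), with library size scaling, and without the cells numbered from 394 at days 140 to 150 (an alternative chosen after seeing the data). It was 1 by DESeq2 between gestation and lactation (DGAT2), and for the trend it was 1 by DESeq2, 1 with no filter on low counts and 1 with equal weight per cell (GK; slopes 2.41, 2.44 and 2.25, adjusted p = 1.31e-08, 0.0248 and 0.0456); the cause was not tested. Over all alternatives the GK slope ran from 1.68 to 2.59, with adjusted p from 1.31e-08 to 0.484. The count over all genes depended on the tool. Between gestation and lactation it was 12 in edgeR, 523 in DESeq2, 22 with library size scaling (6 higher and 16 lower, against 6 and 6), 21 with no filter, 6 with equal weight per cell, 1 without the cells numbered from 394, and 1 to 45 when samples were left out, where leaving out lactation day 7 gave the 45. For the trend it was 6, 303, 4, 17, 16 and 7 in the same order, and 0 to 9 when samples were left out, where leaving out days 140 to 150 gave the 0. In gestation against the virgin sample it was 1 in edgeR, 114 in DESeq2, 5 with no filter and 57 with equal weight per cell, and in lactation against it 0, 96, 0 and 33. The 9 fold changes and slopes followed (those of the 10 genes with an unadjusted p under 0.05, and of PLIN2) kept their sign in all alternatives run. They were chosen by p-value in the same counts, and the alternatives share most of the data. A kept sign was therefore likely beforehand and is not a test of these results. No paired analysis was possible because each stage is 1 sample and the labels give no replicate numbers. The 10 genes had at least 1158 reads per sample, and the part of depth in their levels was not tested.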
